A study of Caenorhabditis elegans with 14 samples.

Results

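The comparison described here sets whole L4 larvae of Caenorhabditis elegans that carry both nfki-1(cer1) and ikb-1(nr2027), the double mutant, against wild type (WT) L4 larvae. Its members were taken by the sample labels: 2 files of read counts for the double mutant and 2 for WT, 4 of the 14 files in the series, and every gene in them. Of 42048 genes listed, 14812 passed a filter on low counts and were compared. By the labels the double mutant carries nfki-1(cer1) and ikb-1(nr2027) in the N2 (Bristol) background. The study describes cer1 as a deletion of 368 bp made by CRISPR-Cas9, and nr2027 as a deletion of 1911 bp. WT is N2 itself and carries neither deletion. Both strains were collected as L4 larvae from synchronized cultures after 36 h of growth at 25 °C, with no treatment. The other L4 strains, nfki-1(cer1) and ikb-1(nr2027) alone, were grown likewise and are used below only to place the values of the double mutant. A heading of the study's gene tables names cer2 in place of cer1 for this strain, and the labels, with which the study's strain list matches, were followed. The labels give whole animals, so a level sums over all tissues, although the protocol deposited with them also speaks of a cell suspension and sorting. In such samples fewer cells of a type and less RNA per cell cannot be told apart.

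IκB proteins hold NF-κB transcription factors in the cytoplasm through their ankyrin repeats, and they are degraded when the pathway is activated. C. elegans has the IκB-like proteins NFKI-1 and IKB-1, although no NF-κB factor with a Rel homology domain is known in this species. NFKI-1 acts in neurons downstream of the interleukin-17 receptor. During L4 the hermaphrodite germ line makes sperm and then begins to make oocytes, the gonad arms finish their growth, and the epidermis builds the adult cuticle before the last molt. Genes of oogenesis, yolk, molting and the cuticle are strongly staged at this time of development.

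The cer1 deletion was made with 2 CRISPR RNAs against nfki-1 on chromosome X, and these are the designed sequences that define 1 of the mutated loci. They are printed in lower case throughout, since no base in them was compared with another sequence.
cer1 guide for the N-terminal cut: cttgttcgggactgcaccgg
cer1 guide for the C-terminal cut: aatgttcgtgttgccacagg

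The files held 20424573 and 20406673 reads on genes for the double mutant and 21948017 and 21990865 for WT, and a further 13.4% to 15.9% of the reads in each L4 file fell on no gene. Before any comparison the paired files of each L4 strain were compared with each other over 4513 genes of 50 to 1000 counts. File 1 and file 2 differed by 3.31 to 3.88 times the counting variance, but that difference was shared by the strains: its Pearson's r between strains, across genes, which are not independent replicates, lay between 0.845 and 0.874. After the shared difference was removed, the files of a pair differed by 0.470 to 0.524 times the counting variance, which is less than sampling noise. The labels number the files of each L4 strain as replicates 1 and 2, and whether they are separate worm populations or repeat readouts of 1 is not stated. Each pair was counted as 1 sample because of this likeness, so the double mutant and WT were compared with 1 sample each. Values are given as CPM, which here means reads on a gene per 1000000 reads on all genes after TMM scaling, for each file. A gene was called higher or lower where the pair's log2 ratio of double mutant to WT was at least 2 in size and its exact binomial 95% interval excluded 0. That interval covers counting error only, and a call is not a test of the spread between worm populations.

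Both deleted genes had fewer reads in the double mutant. nfki-1 (chromosome X, 15355238 to 15363861, listed in the files as C33A11.1) had 7.02 and 7.52 CPM in the double mutant, against 36.5 and 37.1 CPM in WT, a log2 ratio of -2.34 (interval -2.60 to -2.07). ikb-1 (chromosome I, 9685398 to 9688653) had 2.98 and 2.54 CPM in the double mutant, against 11.5 and 11.8 CPM in WT, a log2 ratio of -2.08 (interval -2.55 to -1.66). ikb-1 falls short of the call with library totals (-1.89) and without the second file of the double mutant (-1.97). Neither gene reached 0. The counts cover whole genes and not the deleted parts alone, so they are no direct check of the deletions. ikb-1 also had 5.77 CPM in nfki-1(cer1), which does not carry its deletion, a log2 ratio to WT of -1.01, and nfki-1 had 25.0 CPM in ikb-1(nr2027), a log2 ratio of -0.56. For both genes the files of the double mutant lay below those of WT, as for all 288 genes called lower. As the files of a pair are so alike, a call nearly fixes this, and it is no further support.

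Of the 14812 genes, 1015 were called higher in the double mutant, which is 6.85% of all genes compared, and 288 were called lower, which is 1.94%. Together they make up 8.80%. With at least 10 counts asked of every L4 file, which leaves 12592 genes, 589 were called higher and 175 lower. At a log2 ratio of at least 1 in size the counts were 2511 (17.0%) and 996 (6.72%). Over all genes the median log2 ratio was -0.05, and 90% of genes lay between -1.23 and 2.24. Called genes were mostly protein coding (1248 of 1303), and 377 of those called higher and 146 of those called lower reached 10 CPM in the strain with more. WT was at 0 in both files for 12 of the genes called higher, and the double mutant for 5 of those called lower. For these genes the ratio is a bound, computed against a floor of 3 counts per file.

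**Figure D1:**
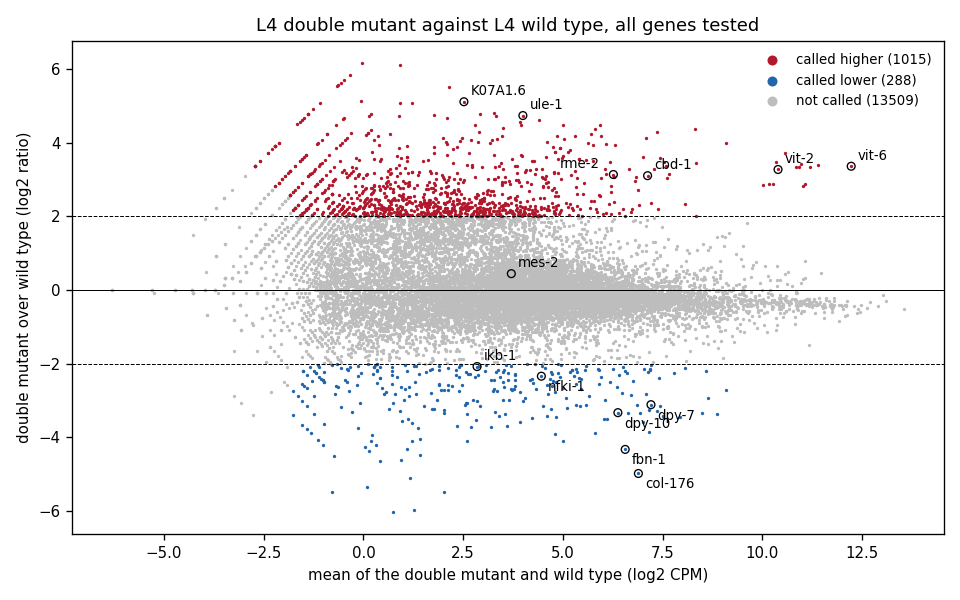
Log2 ratio of double mutant to WT (vertical axis) against the log2 of the mean CPM of both strains (horizontal axis) for each of the 14812 genes compared, with called genes in colour and the log2 threshold of 2 as dashed lines. The 1015 genes called higher reach the right of the plot through vit-2 and vit-6, and the 288 called lower hold the deleted genes and cuticle genes such as dpy-7, fbn-1 and col-176.

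Genes of oocytes and the eggshell were higher in the double mutant as a group. Of 29 genes on that list, 24 were called higher (82.8%, beside 6.85% of all genes) and 0 lower. The median log2 ratio was 3.11 beside -0.05 over all genes. rme-2, which encodes the receptor by which oocytes take up yolk, had 141 and 135 CPM in the double mutant, against 16.06 and 15.33 CPM in WT, a log2 ratio of 3.14 (interval 2.96 to 3.32). cpg-2, a chondroitin proteoglycan of the eggshell and the list's member with most reads, had 365 and 338 CPM in the double mutant, against 34.96 and 33.72 CPM in WT, a log2 ratio of 3.36. Both genes were thus about an order of magnitude higher. perm-4, which is needed for the permeability barrier of the egg, had 356 and 283 CPM in the double mutant, against 30.9 and 22.6 CPM in WT, and perm-2 had a log2 ratio of 3.63. The RNA-binding protein genes oma-1 and oma-2, which act in oocyte maturation, had log2 ratios of 2.93 and 3.29, and puf-5 had 3.50. egg-1 and egg-2, which encode receptors on the oocyte surface needed for fertilization and are similar in sequence, had 3.55 and 3.22. The highest log2 ratio on the list was 4.24 for nos-2, a maternal Nanos-family gene, but from only 2.12 and 3.96 CPM in the double mutant, against 0.107 and 0.214 CPM in WT. The 5 members not called were mex-3 (1.85), lin-41 (1.12), cav-1 (0.92), egg-6 (0.23) and egg-4 (2.33, with an interval from -0.41 to 5.19). egg-6, the lowest of the list, is also used in the apical matrix of epithelia and had 72.7 and 74.2 CPM in the double mutant, against 62.6 and 63.0 CPM in WT.

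Yolk genes and genes secreted into the uterus went the same way. All 6 vitellogenin genes, whose proteins are made in the intestine and carried to oocytes as yolk, were called higher, with log2 ratios from 3.28 to 3.74. vit-6 had 8844 and 8654 CPM in the double mutant, against 860 and 839 CPM in WT, a log2 ratio of 3.36 (interval 3.34 to 3.39). vit-2 had 2456 and 2425 CPM in the double mutant, against 257 and 247 CPM in WT, a log2 ratio of 3.28. vit-1 had 279 and 286 CPM in the double mutant, against 28.6 and 29.6 CPM in WT. In each of these genes the files of the strains did not overlap, as in 996 of the 1015 genes called higher, which the call nearly fixes. vit-2 and vit-6 were not called with the spread of the L1 replicates described below. vit-3, vit-4 and vit-5 had log2 ratios of 3.35, 3.54 and 3.74, but these genes are close copies of each other, so the shares of reads that fit several of them are uncertain. Other intestine genes did not go with them. The gut transcription factor gene elt-2 had 31.4 and 34.3 CPM in the double mutant, against 46.8 and 51.7 CPM in WT. Of 9 intestine regulators and structural genes 0 were called, beside 8.80% of all genes, with a median log2 ratio of -0.33. The 5 ule genes, named for uterine lumen expression, were looked at after their values had been seen, and all 5 were called higher. ule-3 had 311 and 317 CPM in the double mutant, against 16.43 and 15.55 CPM in WT, a log2 ratio of 4.30. ule-1 had 33.9 and 27.6 CPM in the double mutant, against 1.18 and 1.13 CPM in WT, a log2 ratio of 4.74.

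**Figure D2:**
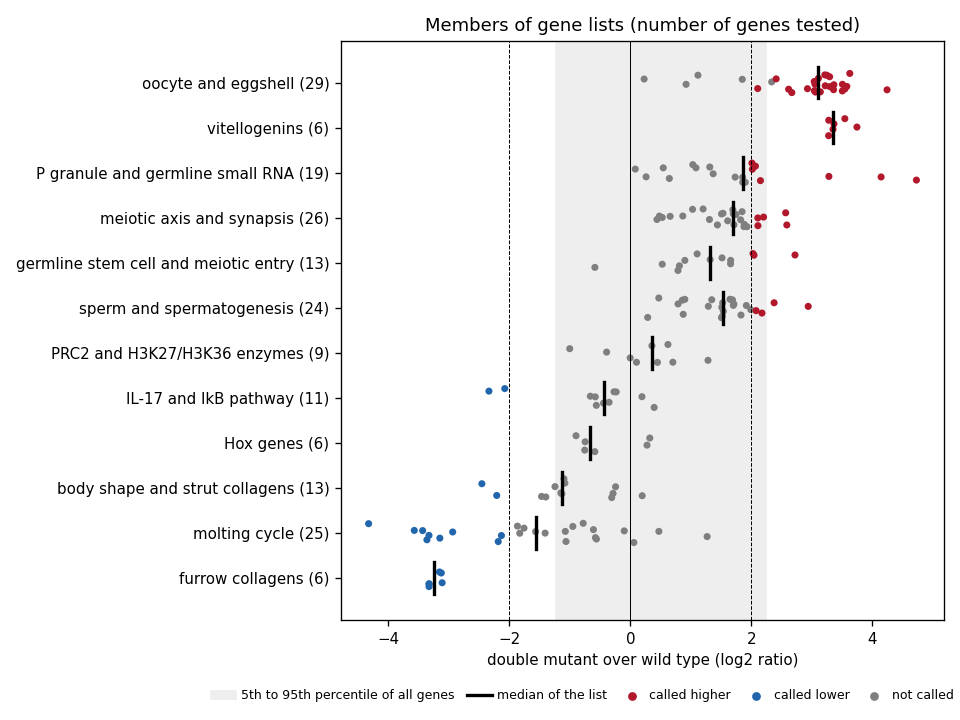
Log2 ratios of double mutant to WT (horizontal axis) for the members of 12 gene lists, 1 point per gene with the number of genes compared in brackets, list medians as bars, and the range of the central 90% of all genes shaded. The oocyte and vitellogenin lists lie to the right with medians of 3.11 and 3.36, the furrow collagens to the left with a median of -3.24, and the PRC2 list around 0.35.

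Germ cell genes of earlier steps were also above WT, but by less. Among 13 genes of germline stem cells and meiotic entry 3 were called higher (23.1%, beside 6.85% of all genes), gld-1, daz-1 and gld-3. The median log2 ratio was 1.32. gld-1, a translational repressor of the meiotic germ line, had 184 and 224 CPM in the double mutant, against 28.9 and 33.0 CPM in WT, a log2 ratio of 2.72 (interval 2.59 to 2.85). glp-1, the Notch receptor that keeps germline stem cells dividing, had 28.1 and 30.6 CPM in the double mutant, against 11.7 and 11.9 CPM in WT, a log2 ratio of 1.32 that did not reach the threshold. fog-3, required for sperm fate, was the exception on the list, with 0.353 and 0.610 CPM in the double mutant, against 0.749 and 0.697 CPM in WT and an interval of the log2 ratio from -1.90 to 0.71. All 26 genes of the meiotic axis, synapsis and recombination had ratios above 0, with a median of 1.70. Of them 5 were called higher (19.2%, beside 6.85% of all genes). spo-11, which makes the breaks that start meiotic recombination, had 16.6 and 14.3 CPM in the double mutant, against 2.78 and 2.36 CPM in WT, a log2 ratio of 2.58. him-3, a protein of the chromosome axis, had 31.0 and 34.3 CPM in the double mutant, against 11.2 and 11.8 CPM in WT, a log2 ratio of 1.51. him-17, a chromatin factor of meiosis, was the lowest of the list at 0.44.

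P granules are the RNA granules of germ cells. Of 19 genes of P granules and of germline small RNA pathways, 7 were called higher (36.8%, beside 6.85% of all genes) and 0 lower. The median log2 ratio was 1.85. The constitutive granule gene pgl-1 had 216 and 218 CPM in the double mutant, against 58.0 and 58.4 CPM in WT, a log2 ratio of 1.90, just under the threshold, and the helicase gene glh-1 had a log2 ratio of 1.31. The maternal granule genes meg-1 and meg-2 had the largest ratios on this list. meg-1 had 10.3 and 10.5 CPM in the double mutant, against 0.589 and 0.590 CPM in WT, a log2 ratio of 4.14 (interval 3.28 to 5.17). meg-2 had 4.73, with an interval from 2.37 to 7.40 because WT held few reads. At the other end were znfx-1 at 0.08 and the translation factor gene ife-1 at 0.26. Genes of DNA replication and mitosis, which all dividing cells use, moved less than these. Of 25 such genes 2 were called higher (8%, beside 6.85% of all genes), and the median log2 ratio was 0.48. The called ones were cyb-2.1 and cyb-2.2, which encode similar B-type cyclins. The replication helicase gene mcm-5 had 57.8 and 59.5 CPM in the double mutant, against 58.8 and 58.6 CPM in WT.

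Sperm genes were above WT in every member compared. Of 24 genes of sperm and spermatogenesis 4 were called higher (16.7%, beside 6.85% of all genes), snf-10, spe-8, gsp-4 and spe-26, and 0 lower. All 24 had a log2 ratio above 0, with a median of 1.53. spe-11, a sperm-supplied factor for the embryo, had 19.4 and 21.0 CPM in the double mutant, against 5.25 and 5.47 CPM in WT, a log2 ratio of 1.92. spe-15, a myosin that sorts material into spermatids and the list's member with most reads, had 62.2 and 64.2 CPM in the double mutant, against 21.6 and 22.8 CPM in WT, a log2 ratio of 1.51. snf-10, a transporter that acts in sperm activation, had the highest ratio at 2.94. The lowest was spe-39 at 0.29, a gene used in many tissues for vesicle traffic. Genes of the major sperm protein, the cytoskeletal protein of nematode sperm, are near-identical copies, and 9 of 31 were compared. 4 of them were called higher (44.4%, beside 6.85% of all genes) and the median log2 ratio was 2.27. All levels were low: msp-50, with the most reads, had 2.37 and 8.08 CPM in the double mutant, against 0.535 and 1.45 CPM in WT, and the files differed by more than 2-fold within the double mutant and within WT.

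Among genes lower in the double mutant, many belonged to the cuticle and to molting. All 6 furrow collagen genes, whose products form the annular furrows of the cuticle, were called lower within a narrow range, from -3.33 to -3.11. dpy-7 had 30.5 and 30.8 CPM in the double mutant, against 258 and 272 CPM in WT, a log2 ratio of -3.11 (interval -3.24 to -2.99). dpy-10 had 15.3 and 14.8 CPM in the double mutant, against 152 and 151 CPM in WT, a log2 ratio of -3.33. All 6 were thus about an order of magnitude lower. The files of the strains did not overlap, as for all 288 genes called lower, so this adds nothing to the calls. Of 25 genes of the molting cycle 9 were called lower (36%, beside 1.94% of all genes) and 0 higher, and the median log2 ratio was -1.57. mlt-11, a protease inhibitor needed for shedding the old cuticle, had 82.8 and 80.8 CPM in the double mutant, against 847 and 838 CPM in WT, a log2 ratio of -3.36. noah-1 and noah-2, matrix proteins of the zona pellucida domain family that link the epidermis to the cuticle, had log2 ratios of -3.33 and -2.94. fbn-1, a fibrillin-like protein of the same matrix, was the lowest of the list, with 8.58 and 9.35 CPM in the double mutant, against 177 and 183 CPM in WT, a log2 ratio of -4.33 (interval -4.55 to -4.11). The molting regulators were closer to WT. nhr-23, a nuclear receptor of the molting clock, had 16.0 and 16.9 CPM in the double mutant, against 29.0 and 27.4 CPM in WT, a log2 ratio of -0.78. lin-42, the Period-related gene of that clock, had 117 and 113 CPM in the double mutant, against 310 and 301 CPM in WT, a log2 ratio of -1.41. mlt-7 and nas-36, which encode a peroxidase and a metalloprotease used late in the molt, had -0.10 for nas-36 and 0.06 for mlt-7. bli-5 had 0.47, and nas-6, the highest of the list, had 1.27 from under 1 CPM in each file.

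Genes of the precuticle, the transient apical matrix laid down before the collagens, and of the lpr lipocalins secreted with it were grouped after their values had been seen. Their counts are not separate from each other or from the molting list. fbn-1 is on the molting and precuticle lists, and lpr-1 and lpr-3 are on the precuticle and lpr lists. Of 12 precuticle genes 9 were called lower (75%, beside 1.94% of all genes), with a median of -3.24. let-653, which shapes tubes such as the vulva and the excretory duct, had 4.85 and 4.62 CPM in the double mutant, against 53.0 and 50.7 CPM in WT, a log2 ratio of -3.45. dpy-6, a mucin-like protein, had 3.59 and 3.51 CPM in the double mutant, against 60.2 and 61.3 CPM in WT, a log2 ratio of -4.10. Of 7 lpr genes 5 were called lower (71.4%, beside 1.94% of all genes). lpr-3, lpr-4, lpr-5 and lpr-6, which are neighbours on chromosome X between 11057401 and 11066811, had log2 ratios from -3.51 to -3.26. The other called gene, lpr-1, lies on chromosome I and had -3.02. lpr-2 and lpr-7, which also lie outside the run on chromosome X, had -0.40 and 0.08.

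The col collagens, the main structural proteins of the cuticle, were divided. Of 137 genes compared, 22 were called higher and 22 lower, and the median log2 ratio was 0.28. Beside 6.85% called higher and 1.94% called lower over all genes, these equal counts are a larger relative excess of lower calls than of higher ones. The member with most reads, col-129, had 5022 and 4897 CPM in the double mutant, against 480 and 466 CPM in WT, a log2 ratio of 3.39. col-19, known as a marker of the adult cuticle and named here after its value was seen, had 2476 and 2278 CPM in the double mutant, against 221 and 202 CPM in WT, a log2 ratio of 3.49. col-20, col-119, col-124 and col-140, seen in the same way, had 3.71, 3.99, 3.35 and 3.33. The highest ratio among members of at least 5 CPM was that of col-95, with 8.23 and 8.94 CPM in the double mutant, against 0.214 and 0.161 CPM in WT, a log2 ratio of 5.52. At the other end col-176 had 7.52 and 7.06 CPM in the double mutant, against 234 and 227 CPM in WT, a log2 ratio of -4.98 (interval -5.23 to -4.74). col-41 had 18.8 and 17.9 CPM in the double mutant, against 268 and 267 CPM in WT, a log2 ratio of -3.86, and col-36 had -4.11. Summed over the family, the double mutant had 77314 CPM, against 34506 CPM in WT. Many col genes are similar in sequence, so reads may be shared unevenly between them.

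Collagens of body shape and of the struts, the pillars of the adult cuticle, lay between these groups. Of 13 compared 2 were called lower (15.4%, beside 1.94% of all genes), bli-1 and dpy-17, with a median of -1.13. bli-1, a strut collagen, had 139 and 135 CPM in the double mutant, against 642 and 627 CPM in WT, a log2 ratio of -2.21, and bli-2 had -1.40. sqt-3, lon-3, rol-6, rol-8, sqt-1 and sqt-2, whose mutants roll or change body length, had ratios from -1.47 to -1.08. dpy-4, dpy-5, dpy-13 and bli-6 were near WT. dpy-13, with the most reads, had 2059 and 2106 CPM in the double mutant, against 2520 and 2563 CPM in WT, a log2 ratio of -0.29, and bli-6 had 0.19.

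Further families secreted or displayed by the epidermis were the hedgehog-related, patched-related and cuticlin genes. Of 43 hedgehog-related genes 11 were called lower (25.6%, beside 1.94% of all genes) and 0 higher, with a median of -1.04. Library totals gave 9 lower and 1 higher. wrt-10 had 17.8 and 22.2 CPM in the double mutant, against 217 and 258 CPM in WT, a log2 ratio of -3.57. grl-16, with the most reads, went the other way without reaching the threshold, with 1607 and 1648 CPM in the double mutant, against 1030.4 and 1050.6 CPM in WT, a log2 ratio of 0.64. Of 24 patched-related genes 2 were called lower (8.33%, beside 1.94% of all genes), ptr-10 at -3.46 and ptr-4 at -2.19. Patched-related genes encode membrane proteins that resemble the Hedgehog receptor. Of 30 cuticlin genes, whose products line the lateral ridges of the cuticle, 5 were called lower (16.7%, beside 1.94% of all genes). cutl-28 had 3.64 and 5.03 CPM in the double mutant, against 22.9 and 24.1 CPM in WT, while cut-2, with the most reads, had 579 and 611 CPM in the double mutant, against 530 and 555 CPM in WT. Among 12 heterochronic genes, which time the larval stages, 0 were called, beside 8.80% of all genes, and 11 had ratios below 0. The lowest were mab-10 at -1.86 and hbl-1 at -1.45, and lin-29, which starts the adult program of the epidermis, had 10.6 and 10.5 CPM in the double mutant, against 29.0 and 26.4 CPM in WT, a log2 ratio of -1.40.

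The remaining genes of the interleukin-17 pathway were near WT. Of 11 compared, the deleted nfki-1 and ikb-1 were the only ones called. The receptor genes ilcr-1 and ilcr-2 had 7.93 and 8.28, and 45.3 and 46.6 CPM in the double mutant, against 12.2 and 13.5, and 57.9 and 59.5 CPM in WT, log2 ratios of -0.66 and -0.35. The adaptor gene actl-1 had -0.58, the kinase gene pik-1 had -0.24 and the paracaspase gene malt-1 had -0.56. The kinase gene ikke-1 had 0.19, the ubiquitin ligase gene lin-23 had 0.39, and the Toll pathway genes tol-1 and tir-1 had -0.27 and -0.45. The ligand gene ilc-17.1 held 1 and 1 counts in the double mutant files, against 0 and 2 in the WT files, and trf-1 held 2 and 3, against 0 and 2, so neither was compared.

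No gene of Polycomb repressive complex 2 (PRC2), which methylates histone H3 on lysine 27 and silences germline and Hox targets, was called. Over all genes 8.80% were called. In lists as short as the PRC2, Hox and synMuv B lists, 0 calls are thus no result about their members. mes-2, the methyltransferase, had 14.9 and 15.2 CPM in the double mutant, against 10.7 and 11.5 CPM in WT, a log2 ratio of 0.45 (interval 0.19 to 0.72). Its partners mes-3 and mes-6 had ratios of 0.10 (interval -0.15 to 0.35) and of -0.00 (interval -0.21 to 0.21). mes-4 and met-1, which methylate lysine 36, had 0.70 and 0.35. The lysine 27 demethylase genes utx-1 and jmjd-3.1 had -0.39 and -1.004, jmjd-1.2 had 0.62, and jmjd-3.3 had 1.28 from under 1 CPM, while jmjd-3.2 was too low to compare. Of 6 Hox genes, which pattern the body axis, 0 were called. egl-5 was the lowest, with 7.22 and 6.30 CPM in the double mutant, against 13.1 and 12.2 CPM in WT, a log2 ratio of -0.90. The posterior genes nob-1 and php-3 and the mid-body gene mab-5 had -0.76, -0.59 and -0.75, and ceh-13 and lin-39 had 0.27 and 0.32 with intervals that hold 0. Of 16 synMuv B repressors, which keep germline genes off in the soma, 0 were called. lin-54, of the DREAM complex, was the highest at 0.90, and the remodeller gene let-418 was the lowest at -0.59.

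The genes of muscle, nerve and ribosomes stood near the centre of the distribution. Of 20 contractile genes of muscle 0 were called, beside 8.80% of all genes, and the median log2 ratio was -0.27. unc-54, the main body wall myosin, had 2761 and 2732 CPM in the double mutant, against 4157 and 4100.1 CPM in WT, a log2 ratio of -0.59. The pharyngeal myosin genes myo-1 and myo-2 went the other way at 1.01 and 1.23. Of 18 synaptic and transmitter genes 0 were called, with a median of -0.47, and snb-1, synaptobrevin, had 91.8 and 109 CPM in the double mutant, against 92.9 and 111 CPM in WT. Of 76 ribosomal protein genes 0 were called and 72 had ratios below 0, with a median of -0.35. rpl-3 had 6334 and 6632 CPM in the double mutant, against 8545 and 8968 CPM in WT, while rpl-11.1 had 0.98. Of 10 genes of the somatic gonad 1 was called higher (10%, beside 6.85% of all genes), the gap junction gene inx-8 of the gonadal sheath. inx-8 had 32.1 and 28.1 CPM in the double mutant, against 6.64 and 5.74 CPM in WT, a log2 ratio of 2.28. lim-7, another marker of the sheath, had 4.14 and 3.25 CPM in the double mutant, against 4.01 and 3.27 CPM in WT. Of 11 genes of vulval signalling 2 were called higher (18.2%, beside 6.85% of all genes). They were the EGF gene lin-3 at 2.27 and the Notch ligand gene apx-1 at 2.60, and cdh-3 was the lowest at -1.48.

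Of 5 inducible heat shock genes compared, hsp-70 was called lower (20%, beside 1.94% of all genes). It had 28.5 and 28.3 CPM in the double mutant, against 126 and 124 CPM in WT, a log2 ratio of -2.14. This call is lost with library totals (-1.96), and with the spread of the L1 replicates described below the DESeq2 adjusted p of hsp-70 was 0.247. The small heat shock protein genes hsp-16.2 and hsp-16.41 had 41.8 and 23.5, and 37.9 and 36.0 CPM in the double mutant, against 144 and 84.9, and 139 and 127 CPM in WT, log2 ratios of -1.81 and -1.85. hsp-12.3 had -0.18 and hsp-12.6 had 0.20. Of 20 insulin-like peptide genes 5 were called higher (25%, beside 6.85% of all genes), all from under 3 CPM in the double mutant. ins-35 was called lower, with 1.11 and 1.27 CPM in the double mutant, against 10.1 and 10.8 CPM in WT. Of 114 C-type lectin genes, many of them used at barriers, 12 were called higher and 2 lower, which is 10.5% and 1.75% of the family, beside 6.85% and 1.94% of all genes. clec-87 had 129 and 138 CPM in the double mutant, against 10.97 and 12.97 CPM in WT, a log2 ratio of 3.48, and clec-180 had 14.7 and 15.1 CPM in the double mutant, against 116 and 122 CPM in WT, a log2 ratio of -2.996. Of 187 nuclear hormone receptor genes 1 was called higher (0.535%) and 6 lower (3.21%, beside 1.94% of all genes), with nhr-91 at -2.06. Of 126 F-box A genes 7 were called higher (5.56%, beside 6.85% of all genes), with fbxa-215 at 2.94. No gene was called among lysozymes and saposin-like proteins (30 compared), fatty acid desaturases and elongases (16), flp neuropeptides (30), epidermal antimicrobial peptides (15) and histones (14). Over all genes 8.80% were called, so 0 calls in such short lists say little.

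The highest ratios among genes of at least 10 CPM were in short genes with little known about them. K07A1.6 had 13.28 and 8.995 CPM in the double mutant, against 0.375 and 0.268 CPM in WT, a log2 ratio of 5.12 (interval 3.97 to 6.58). W02D9.7 had 61.8 and 60.4 CPM in the double mutant, against 2.73 and 2.73 CPM in WT, a log2 ratio of 4.48. Y47D7A.6, the transthyretin-related gene ttr-42, K11D12.13, Y62H9A.3, ZK813.2, C10G8.4 and spex-3 had log2 ratios from 4.49 to 4.81. The rule that picked these genes asked that all files of the double mutant lie above all files of WT. spex-3 was the least even within the double mutant, with 20.05 and 6.30 CPM. Of the 10 lowest, col-176, fbn-1, col-36, dpy-6 and col-41 were given above. cdh-7, a cadherin, had 6.82 and 7.27 CPM in the double mutant, against 106 and 103 CPM in WT, a log2 ratio of -3.89. bus-1, an acyltransferase-like gene that affects the cuticle surface and the adhesion of bacteria to it, had 3.08 and 3.86 CPM in the double mutant, against 52.2 and 51.9 CPM in WT, a log2 ratio of -3.91. peb-1, a DNA-binding protein of the pharynx needed for molting, had 1.77 and 1.73 CPM in the double mutant, against 21.6 and 23.6 CPM in WT, a log2 ratio of -3.69. The other two were the FK506-binding protein gene fkb-7 at -3.71 and Y41G9A.5 at -3.72.

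Called genes were spread over all chromosomes, unevenly. The share called higher was largest on chromosome IV (8.69%) and smallest on chromosome III (4.62%), and the share called lower was largest on chromosome X (3.08%) and smallest on chromosome III (0.845%). The median log2 ratio was -0.29 on chromosome X and between -0.08 and 0.04 on the autosomes. In the order of the coding genes compared there were 37 runs of at least 3 genes all called higher, with 124 genes. There were 3 such runs called lower. Genes that were not compared may lie within a run, and the number of runs expected by position alone was not computed. On chromosome X, ZK813.3, ZK813.2, ZK813.7 and ZK813.1 (3441839 to 3446935) had log2 ratios from 4.20 to 4.55, and Y62H9A.3, Y62H9A.4, Y62H9A.5 and ule-5 (11879110 to 11884042) had ratios from 3.95 to 4.62. Genes within such a run are often similar copies. On chromosome II dpy-10, dpy-2 and T14B4.5 formed a run of lower genes. As it is not stated whether counting used the strand of the reads, overlapping genes in such runs cannot be told apart.

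The double mutant and each single mutant were compared with the same WT pair, so the values are set side by side and no likeness between the comparisons was computed. In nfki-1(cer1) 1839 genes (12.4%) were called higher than in WT and 952 (6.43%) lower. In ikb-1(nr2027) 1710 (11.5%) were higher and 622 (4.20%) lower. On the oocyte and eggshell list the median log2 ratio was 3.11 in the double mutant, 5.06 in nfki-1(cer1) and 4.84 for ikb-1(nr2027). rme-2 thus had 138 CPM in the double mutant, 573 CPM in nfki-1(cer1), 561 CPM in ikb-1(nr2027) and 15.7 CPM in WT. For the vitellogenins the medians were 3.36, 4.57 and 5.40 in the same order, and for the meiotic list 1.70, 3.04 and 2.99. The sperm list had nearly the same median in the 3 mutants, 1.53, 1.58 and 1.57, and so had the ule genes (4.19, 4.47 and 4.75). The furrow collagens had -3.24 in the double mutant, -4.16 in nfki-1(cer1), and -3.87 for ikb-1(nr2027), and the molting list -1.57, -2.38 and -1.69.

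On other lists the double mutant was nearer to WT than the single mutants were. The median log2 ratio of the PRC2 list was 0.35 in the double mutant, 2.09 in nfki-1(cer1), and 1.89 for ikb-1(nr2027). mes-2 had 15.1 CPM in the double mutant, 47.0 CPM in nfki-1(cer1), 41.1 CPM in ikb-1(nr2027) and 11.1 CPM in WT. For the synMuv B list the medians were 0.41, 1.71 and 1.48 in the same order, and for DNA replication and mitosis 0.48, 1.75 and 1.65. For body shape collagens they were -1.13, -2.96 and -2.51. dpy-13 had 2082 CPM in the double mutant, 347 CPM in nfki-1(cer1), 615 CPM in ikb-1(nr2027) and 2541 CPM in WT. Some genes lay below WT in the double mutant and above it in both single mutants. Among them dpy-22, a Mediator subunit, had 13.4 CPM in the double mutant, 97.7 CPM in nfki-1(cer1), 89.9 CPM in ikb-1(nr2027) and 28.02 CPM in WT. ttn-1, the giant muscle protein titin, had 8.81 CPM in the double mutant, 63.3 CPM in nfki-1(cer1), 63.5 CPM in ikb-1(nr2027) and 18.9 CPM in WT.

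Gene length moved with these differences. Among 12544 coding genes with a mean above 1 CPM, the median log2 ratio to WT of the 762 genes of up to 500 exonic bases was 0.09 in the double mutant, -0.80 in nfki-1(cer1) and -0.71 for ikb-1(nr2027). For the 88 genes of over 8000 exonic bases it was -0.62 in the double mutant, 0.81 in nfki-1(cer1) and 0.77 for ikb-1(nr2027). Of these 88 genes, 81 were lower in the double mutant than in WT, 84 lower than in nfki-1(cer1) and 86 lower than in ikb-1(nr2027). For the 5461 genes of 1000 to 2000 bases the medians were -0.10, -0.22 and -0.19. The single mutants thus trended upward with length and the double mutant downward. The part of length in the differences between the double mutant and the single mutants was not tested, and ttn-1 (56044 exonic bases) is the longest of these genes.

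**Figure D3:**
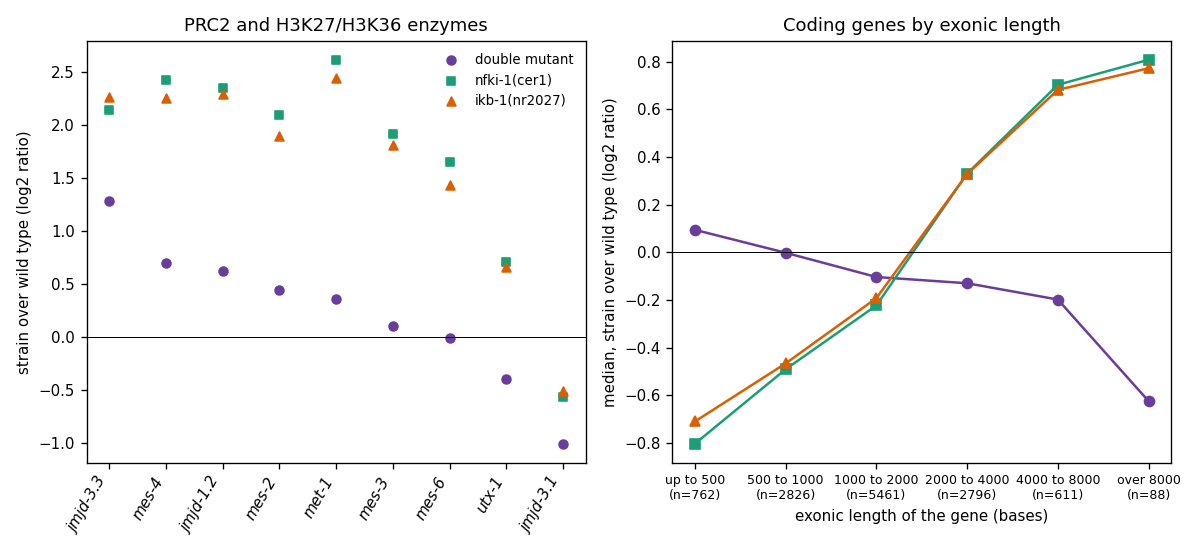
Left, log2 ratio to WT of the 9 genes compared on the PRC2 list in the double mutant, nfki-1(cer1) and ikb-1(nr2027); right, median log2 ratio to WT of coding genes grouped by exonic length in bases, with the number of genes (n). The double mutant lies below both single mutants for every gene on the left, and on the right it falls to -0.62 in the longest genes, where the single mutants reach 0.81 and 0.77.

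Few genes set the double mutant apart from all 3 other strains at a log2 ratio of 2. There were 11 such genes higher (0.0743% of those compared) and 8 lower (0.0540%). These 19 became 36 without the first file of the double mutant and 29 without its second file, and 6 with at least 10 counts in every file. Of the higher ones 5 reached 5 CPM. R03C1.1 had 6.82 and 6.71 CPM in the double mutant, against 0.867 CPM in nfki-1(cer1), 0.923 CPM in ikb-1(nr2027) and 1.18 and 0.804 CPM in WT, a log2 ratio to WT of 2.77. abu-11 and abu-10, of a family of glutamine- and asparagine-rich proteins of the pharyngeal cuticle, had 19.5 and 8.18 CPM in the double mutant, against 3.80 and 1.29 CPM in WT, log2 ratios of 2.36 and 2.67. The family, grouped after its values were seen, had 3 of 6 genes called higher (50%, beside 6.85% of all genes). Its members with most reads, abu-13 and abu-12, had log2 ratios of -0.68 and -0.30. Its summed level was 233 CPM in the double mutant, against 255 CPM in WT. In the single mutants abu-11 had 2.40 CPM in nfki-1(cer1) and 4.76 CPM for ikb-1(nr2027). idpc-4 had 12.9 and 10.9 CPM in the double mutant, against 1.75 CPM in nfki-1(cer1), 2.60 CPM in ikb-1(nr2027) and 2.73 and 2.41 CPM in WT. scvp-1 had 8.74 and 6.66 CPM in the double mutant, against 1.82 and 1.45 CPM in WT. For all 5 genes the single mutants were within a log2 ratio of 1 of WT. With the spread of the L1 replicates described below, R03C1.1, idpc-4 and scvp-1 had an adjusted p under 0.01 in no fit. abu-10 and abu-11 had one by DESeq2 alone. None of the 8 lower genes reached 5 CPM in any strain. ztf-30, a zinc finger gene, had 0.151 and 0.102 CPM in the double mutant, against 0.591 CPM in nfki-1(cer1), 0.521 CPM in ikb-1(nr2027) and 4.18 and 4.50 CPM in WT, a log2 ratio to WT of -5.10 (interval -8.49 to -3.52). The cilium genes che-3 and wdr-60, a heavy chain and an intermediate chain of the dynein of intraflagellar transport, were lower at -2.02 and -2.89, and che-3 is a long gene of 12568 exonic bases.

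**Figure D4:**
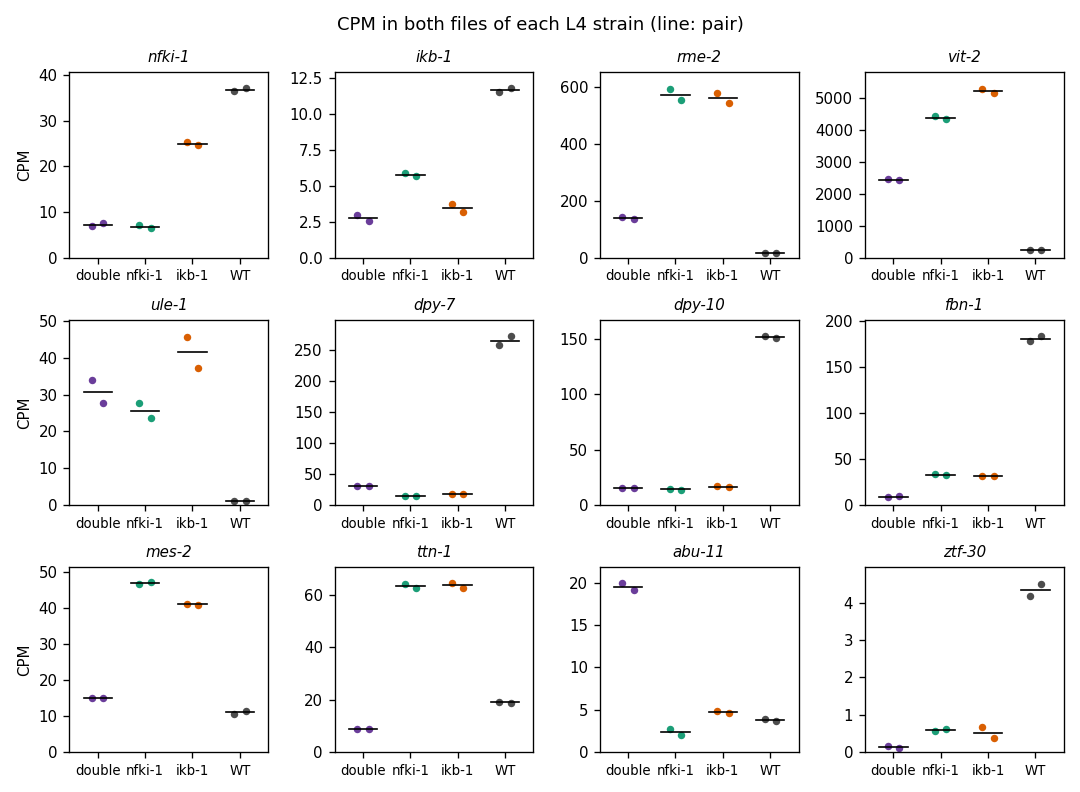
CPM of 12 genes in both files of each L4 strain (points) with the level of the pair (line), on linear axes from 0, for the double mutant, nfki-1(cer1), ikb-1(nr2027) and WT. Oocyte and yolk genes are lowest in WT and intermediate in the double mutant, dpy-7, dpy-10 and fbn-1 are highest in WT, and abu-11 stands at 19.5 CPM in the double mutant, against 2.40, 4.76 and 3.80 CPM in the other strains.

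The labels also give 2 replicates for each L1 strain, which are nfki-1(cer2), ikb-1(cer9) and WT, fed for 5 h and then starved for 3 h. When each L4 pair was summed to 1 sample and the spread was taken from the 6 L1 libraries, which assumes that L4 populations vary as L1 ones do, the edgeR quasi-likelihood fit had 0 genes higher and 0 genes lower, at a log2 ratio of 2 or more in size with an adjusted p under 0.01. In that fit 1537 genes were higher and 990 lower at an unadjusted p below 0.05, and the smallest adjusted p was 0.0463. With the L1 replicate number as a block 38 genes were higher and 8 lower, and DESeq2, with the same samples and no block, called 304 and 100. The 42 genes with an adjusted p below 0.05 in the edgeR fit without the block held 35 higher and 7 lower ones, and with the block 703 were higher and 320 lower at that threshold. Among the higher ones were the oocyte genes rme-2, egg-1, egg-2, cpg-1, puf-5, puf-11 and mex-1 and the collagen gene col-8 (edgeR adjusted p of 0.0463 for each of these), and meg-1 with the same value. Among the lower ones were Y41G9A.5 (edgeR adjusted p of 0.0463) and cdh-12 (0.0464), and col-41, sym-1, fkb-7, rml-4 and B0365.9 (0.0491 each). With the block the adjusted p of rme-2 and of col-41 was 0.00851. Some genes of large ratio given above were called in none of these fits. Among them were vit-2, vit-6, W02D9.7 and Y62H9A.3 of the higher genes. Of the lower genes, dpy-7, noah-2, peb-1, lpr-3, lpr-4, lpr-5 and lpr-6 were not called either, while DESeq2 called the other furrow collagens. No gene had a p of its own in the comparison of the pairs. There the difference between populations cannot be told apart from that between strains.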

How the data were processed

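RNA-seq of whole L4 larvae was analysed from counts per gene. The authors trimmed the reads, aligned them to WBcel235 with Bowtie2 and counted high-quality alignments with HTSeq, and the deposited counts carry no normalization. The labels' protocol also names long-distance PCR of cDNA and shearing before library preparation. Whether strand was used in counting is not given in the sources used here. Lines that name no gene (13.4% to 15.9% of the reads at L4) were left out of totals. Genes passed edgeR's filterByExpr (minimum count 10, all 8 L4 files), and files were scaled by TMM. Each pair's counts were summed for levels and ratios, and intervals used the pair's mean count, since whether the files of a pair hold reads of the same fragments was not tested. At the depth of these files the interval is wide where 1 strain holds few reads.

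Of the genes compared, 14415 matched the Ensembl annotation of WBcel235, 1265 of them through RefSeq locus tags. The lists (38) and the comparison were chosen with earlier results of these data known, and 7 further lists were added after values were seen. Genes were named by rule: nfki-1 and ikb-1, the 10 highest and 10 lowest called genes of at least 10 CPM with 1 direction in all pairings of files, each list's member with most reads and its extremes of at least 5 CPM, all members of the PRC2, Hox, interleukin-17 and vitellogenin lists, and up to 5 genes each way that set the double mutant apart. Other named list members serve as examples of their list and were chosen with values in view.

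The file numbers pair the L4 files, since the difference between file 1 and file 2 correlated between all strains (r of 0.845 to 0.874). Tests, used as alternatives, were edgeR's quasi-likelihood method and DESeq2 with Benjamini-Hochberg adjustment, on files as replicates or on pairs summed with the spread of the L1 replicates. Other alternatives were RLE factors, library totals, TMM of 4 files, other filters and thresholds, a pseudocount of 0.1 CPM and each file left out. For genes set apart from the other strains, alternatives were added after the data were seen. The ratio and the tests were tested on simulated data with known changes. Software was R 4.3.3, edgeR 4.0.16, DESeq2 1.42.0 and Python 3.11.15 with pandas 2.3.3, numpy 2.4.6, scipy 1.17.1 and matplotlib 3.10.9.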

Additional observations from a re-analysis of the deposited data

How the results depend on the processing

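No called gene changed direction under any alternative run. Against 1015 genes higher and 288 lower, the counts were 1029 and 284 with RLE factors, 1113 and 267 with TMM factors of the 4 files, 1049 and 316 with no filter, 819 and 243 by fold alone with 0.1 CPM added, and 840 and 248 with the interval's nearer bound past 1. At least 10 counts in every L4 file left 12592 genes, of which 589 were higher and 175 lower. A log2 ratio of at least 1 gave 2511 and 996. Library totals alone moved the median of all genes to 0.13 (from -0.05 with TMM) and gave 1336 higher and 227 lower, 85.5% of calls higher in place of 77.9%. Ratios near 0 thus change sign with library totals, as do the medians of the somatic gonad list (0.15, against -0.04 with TMM) and the C-type lectins (0.11, against -0.06). Without 1 file at a time 983 to 1099 genes were higher and 287 to 320 lower.

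With files as replicates, edgeR called 946 and 279 genes, 1051 and 291 with the replicate block, and DESeq2 881 and 236. These tests take files that differ by less than sampling noise, apart from the shared difference, as replicates. With pairs summed and the spread of the L1 replicates, edgeR called 0 and 0, 38 and 8 with the replicate block, and DESeq2 304 and 100. In that edgeR fit the block also took the genes with an adjusted p below 0.05 to 703 higher and 320 lower, against 35 and 7 without it, and those lower at an unadjusted p below 0.05 to 1864, against 990. With files as replicates it moved neither count of calls by over 1.5 times.

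The 19 genes that set the double mutant apart became 20 with RLE factors, 21 with library totals, 20 with no filter, 6 with at least 10 counts in every file, 7 with 0.1 CPM added, 29 by fold alone, 268 at a log2 ratio of 1 and 8 with the bound past 1. Without 1 file they were 19 to 36, with 36 without the double mutant's file 1 and 29 without its file 2. Depth limits genes under about 1 CPM, whose intervals span several log2 units.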

Other observations

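Neprilysin-like peptidase genes (nep) were grouped after their values were seen. Among 21 compared, 8 were called higher (38.1%, beside 6.85% of all genes) and 0 lower, with a median log2 ratio of 1.24. nep-4 had 5.55 and 4.98 CPM in the double mutant, against 0.642 and 0.804 CPM in WT, a log2 ratio of 2.86, and nep-13 had 2.36. nep-20, nep-9, nep-10 and nep-8 are neighbours on chromosome II and had ratios from 2.02 to 2.31. nep-17, the member with most reads, had 1069 and 1055 CPM in the double mutant, against 930 and 916 CPM in WT, a log2 ratio of 0.20. The list's median against WT was 0.54 for nfki-1(cer1), and for ikb-1(nr2027) it was 1.10.

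Genes of intraflagellar transport and the BBSome, which build sensory cilia, were grouped after the values of che-3 and wdr-60 had been seen. Of 29 compared, these 2 were called lower (6.9%, beside 1.94% of all genes), 25 had ratios below 0 and the median was -0.55. wdr-60 held 1 and 3 counts in the double mutant files, against 15 and 13 in the WT files (interval -6.07 to -0.77). daf-10 was the highest, with 5.71 and 4.98 CPM in the double mutant, against 3.37 and 2.68 CPM in WT, a log2 ratio of 0.82. The study describes NFKI-1 as part of a pathway that regulates oxygen sensing. Among 13 genes of oxygen-sensing neurons, gcy-32, a guanylate cyclase, was called lower (7.69%, beside 1.94% of all genes). gcy-32 had 0.454 and 0.661 CPM in the double mutant, against 3.43 and 3.70 CPM in WT. Its log2 ratio was -2.68 (interval -3.74 to -1.73), and it was not called with the spread of the L1 replicates. The cyclase genes gcy-35, gcy-36 and gcy-37 had -0.78, -1.34 and -0.96, while gcy-31 and gcy-33 had 1.07 and 1.09. hif-1 had 201 and 203 CPM in the double mutant, against 252 and 254 CPM in WT.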
